A study of Mus musculus with 7 samples.

Results

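Heat shock chaperones bind unfolded or partly folded proteins, and 10 genes of this system were followed: the transcription factor gene Hsf1, the HSP70 genes Hspa1a, Hspa1b, Hspa8 and Hspa5, the HSP70 partners Hsph1 and Dnajb1, the HSP90 genes Hsp90aa1 and Hsp90ab1, and the mitochondrial co-chaperonin gene Hspe1. They were taken by gene symbol, and all 10 had a row among the 14594 named genes of the count table. The members were chosen by measured values of these data, namely their spread in counts over the 7 libraries and their difference between the groups. Their levels and fold changes are therefore a description and carry no p-value.

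RNA was measured in microglia, the resident macrophages of the brain, sorted from the cortex of C57BL/6 mice 12 weeks old. Hoxb8 microglia (n = 3 libraries, numbered 6, 14 and 22 in the labels) were sorted as tdTomato and GFP positive, and non-Hoxb8 microglia (n = 4 libraries, numbered 5, 13, 21 and 25) as GFP positive only. All mice had the same genotype: Cx3Cr1GFP/+, which labels microglia and other Cx3cr1-expressing macrophages with GFP, Hoxb8IRES-Cre/+, which makes Cre where Hoxb8 is expressed, and ROSA26CAG-LSL-tdTomato/+, which turns tdTomato on in Cre-expressing cells and their descendants. Cells of the control group thus carried every allele too, and tdTomato marks a history of Hoxb8 expression rather than its present level. Meninges were removed, and the tissue was digested with trypsin for 30 min at 37 °C before capture on Cd11b beads and sorting. The labels name 4 animals for the 7 libraries without tying libraries to animals, and do not say whether animals were pooled, so p-values measure the spread between libraries, which may share an animal or hold several.

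The heat shock response is driven by the protein HSF1, which is present in unstressed cells and held inactive by chaperones. When unfolded proteins draw the chaperones away, HSF1 forms trimers, binds repeats of the letters GAA in promoters (heat shock elements) and switches on HSP70, HSP90 and their partners. The endoplasmic reticulum has a separate system, the unfolded protein response, with Hspa5 as a classic target. Chaperone and immediate early transcripts are also known to be induced in brain macrophages by enzymatic dissociation of the tissue.

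Totals lay between 7189075 and 7635360 counts in Hoxb8 libraries and between 5915261 and 7741934 in non-Hoxb8 libraries, and levels are given as CPM, TMM-scaled counts relative to the library total. The 8 listed homeostatic microglia markers were all tested and summed to between 30340 and 34920 CPM in Hoxb8 libraries and between 26610 and 35920 CPM in non-Hoxb8 libraries. Markers of border-associated macrophages, a neighbouring brain macrophage population, were all tested (6 of 6). They summed to between 190.5 and 782 CPM in Hoxb8 libraries and between 31.4 and 187 CPM in non-Hoxb8 libraries. All 6 had a log2 fold change above 0, with a median of 2.34. Without a block, edgeR called 0 of 6, limma-voom 0 and DESeq2 1 (0.202% of tested genes). With adjacent library numbers as a block, edgeR called 5 as higher in Hoxb8 (0.362% of tested genes). Monocyte markers (5 of 6 tested) summed to between 292.5 and 627 CPM in Hoxb8 libraries and between 124 and 202 CPM in non-Hoxb8 libraries. Itga4, an integrin gene, was higher in Hoxb8 libraries (log2 fold change 3.36 ± 0.42 SE, edgeR adjusted p = 0.00673). It was the 1 monocyte marker that edgeR called without a block (0.0337% of tested genes). Limma-voom called 0 of these markers, DESeq2 4 (0.202% of tested genes) and edgeR with the block 2, Lyz2 and Itga4 (0.362%). The 5 tested markers had log2 fold changes above 0. Lyz2 was the largest part of the sum in every library, at 184 to 468 CPM in Hoxb8 and 99.6 to 185 CPM in non-Hoxb8 libraries. Ly6c2, the untested marker, was at 0 CPM in all Hoxb8 libraries and found only in non-Hoxb8 library 5, at 3.56 CPM. Neither the border-associated macrophage sum nor the monocyte sum overlapped between the groups, though the former came close (190.5 against 186.9 CPM). Taken singly, Cd163, Lyve1, Pf4, Lyz2 and Plac8 overlapped, while Mrc1, Cbr2, F13a1, Ccr2, Itga4 and Treml4 did not. Among all tested genes, 4.55% had groups without overlap. The part of these marker sums in the values below was not tested. Neutrophil markers summed to at most 3.09 CPM. Xist and 4 Y-linked genes were found together in Hoxb8 library 22 (8276 CPM and a sum of 95.1 CPM) and in non-Hoxb8 libraries 21 (8522 and 133 CPM) and 25 (14293 and 84.5 CPM), so these 3 libraries stand apart in holding transcripts of both sexes. The Y-linked sum was 268 CPM in library 14 and 293 CPM in library 13, where Xist was at 15.1 and 23.1 CPM. It was 0 CPM in library 6 and 0.411 CPM in library 5, where Xist was at 14928 and 22504 CPM. Libraries with adjacent numbers were thus alike in these genes, and the part of sex in the chaperone levels was not tested.

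Some chaperone transcripts spread widely among libraries of the same group, and others did not. The SD of log2 CPM over the 7 libraries was higher than in 99.3% of tested genes for Hspa1a and Hspa1b. That share was 90.8% for Hsph1, 89.7% for Hsp90aa1, 84.3% for Hspa8 and 73.5% for Hspe1. It was 63.6% for Dnajb1, 62.6% for Hsp90ab1, 49.2% for Hspa5 and 8.32% for Hsf1. The members were chosen partly for this spread. Libraries 13, 14 and 25 were the 3 highest of the 7 for 8 of the 10 members, all except Hspe1 and Hsf1, and these libraries come from both groups. The share of all tested genes with these 3 libraries highest was not computed, so the pattern is not read as particular to the members. The summed level of the 10 members was 1278, 3384 and 1375 CPM in Hoxb8 libraries 6, 14 and 22, against 1349, 3243, 1136 and 3099 CPM in non-Hoxb8 libraries 5, 13, 21 and 25. The highest library exceeded the lowest by 1.51-fold for Hsf1, the narrowest range, and by 55.5-fold for Hspa1b, the widest.

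**Figure D1:**
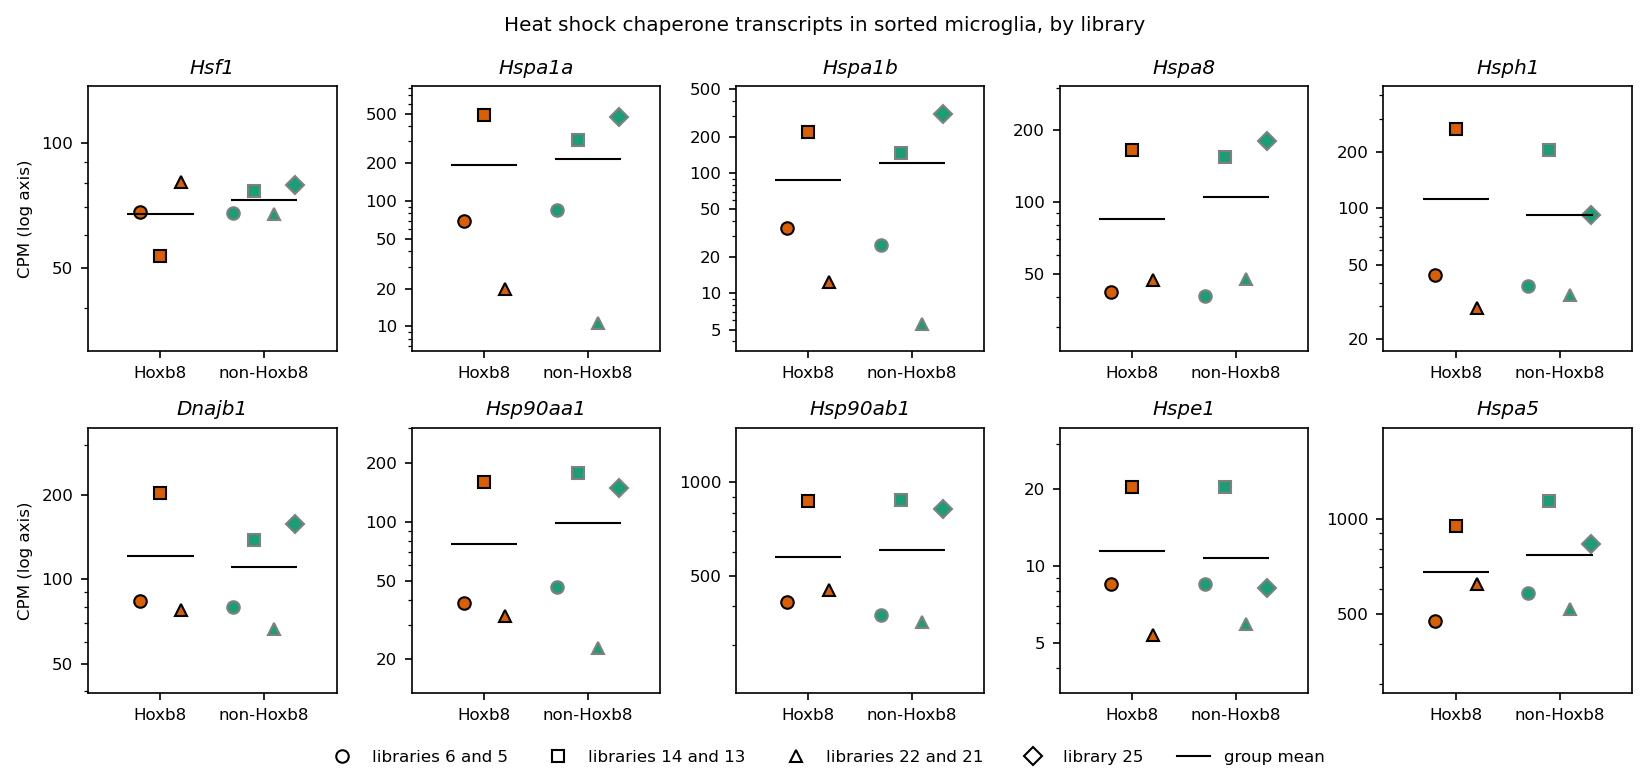
CPM (log axis, with a scale of its own in each panel) of the 10 chaperone genes in each library, Hoxb8 libraries left and non-Hoxb8 libraries right, with a marker shape for each pair of adjacent library numbers and a line at the group mean. Hspa1a spans 10.7 to 489 CPM and Hspa1b 5.60 to 311 CPM, while Hsf1 stays between 53.5 and 80.6 CPM, and the groups overlap in every panel.

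Hsf1, the regulator at the head of the response (chr15:76477422-76501913, GRCm38), stood at 68.0, 53.5 and 80.6 CPM in Hoxb8 libraries 6, 14 and 22, against 67.7, 76.7, 67.4 and 79.2 CPM in non-Hoxb8 libraries 5, 13, 21 and 25. The lowest value was in library 14, where several of its known targets were highest, and the groups overlapped. Means were 67.4 ± 13.6 CPM in Hoxb8 (SD, n = 3) and 72.8 ± 6.09 CPM in non-Hoxb8 libraries (SD, n = 4). Its log2 fold change was -0.11 ± 0.23 (SE). HSF1 activity is controlled at the protein level, which this transcript does not measure.

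Hspa1a and Hspa1b encode the stress-inducible cytosolic HSP70, which holds and refolds unfolded chains. They are neighbouring genes on the minus strand, at chr17:34969190-34972156 and chr17:34956436-34959238 (GRCm38, GENCODE M21). Their promoters are shown because each carries a heat shock element and because they are near copies: 296 of 300 positions are the same. Sequences are from RefSeq (GRCm38.p6), 5′ to 3′, with 250 bases before the gene start and 50 from it. Capitals mark a 2-unit heat shock element, the letters GAANNTTC, at positions -104 to -97, where the first transcribed base is 1 and the base before it -1.
Hspa1a, chr17:34972107-34972406, minus strand: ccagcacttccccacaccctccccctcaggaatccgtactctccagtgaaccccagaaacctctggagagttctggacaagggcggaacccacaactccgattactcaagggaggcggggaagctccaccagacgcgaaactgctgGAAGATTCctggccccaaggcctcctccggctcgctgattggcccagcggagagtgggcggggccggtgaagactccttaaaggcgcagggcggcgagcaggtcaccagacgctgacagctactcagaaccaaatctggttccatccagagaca
Hspa1b, chr17:34959189-34959488, minus strand: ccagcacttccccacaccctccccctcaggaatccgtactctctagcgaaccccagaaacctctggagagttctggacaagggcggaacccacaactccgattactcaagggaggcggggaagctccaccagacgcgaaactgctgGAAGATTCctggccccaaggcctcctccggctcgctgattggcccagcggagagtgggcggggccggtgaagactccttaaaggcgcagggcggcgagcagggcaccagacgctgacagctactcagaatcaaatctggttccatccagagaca
The letters GAANNTTC, which read the same on both strands, occur in 7.86% of the 32851 RefSeq promoter windows, so a match describes a window and does not show binding.

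Hspa1a stood at 69.6, 489 and 20.1 CPM in Hoxb8 libraries 6, 14 and 22, against 85.3, 308.5, 10.7 and 470.1 CPM in non-Hoxb8 libraries 5, 13, 21 and 25. Hspa1b stood at 35.2, 217 and 12.5 CPM in the Hoxb8 libraries, against 25.2, 147, 5.60 and 311 CPM in the non-Hoxb8 libraries in the same order. Both were highest in libraries 14, 13 and 25 and lowest in 22 and 21, so each group held both high and low libraries. The highest library exceeded the lowest 45.6-fold for Hspa1a and 55.5-fold for Hspa1b. The SD of log2 CPM over the 7 libraries was 2.18 for each, higher than in 99.3% of the 11874 tested genes, whose median was 0.48.

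The log2 fold change of Hoxb8 over non-Hoxb8 libraries was -0.18 ± 1.55 (SE) for Hspa1a and -0.47 ± 1.60 for Hspa1b, smaller than its error in both. Reads of 50 bases cannot always separate the pair, since 1716 of the 2754 words of 50 bases in Hspa1b (62.3%) also occur in Hspa1a. Their sum was 105, 706 and 32.6 CPM in Hoxb8 libraries 6, 14 and 22, against 110.5, 456, 16.3 and 781 CPM in non-Hoxb8 libraries 5, 13, 21 and 25. The 3 highest and the 2 lowest libraries were the same for the sum as for each gene. The ratio of Hspa1b over Hspa1a counts lay between 0.296 in library 5 and 0.662 in library 25. An opposite-strand gene, Gm20481, overlaps Hspa1a, and without strand their reads cannot be told apart.

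Hspa8 (chr9:40800984-40810087), the constitutive cytosolic HSP70 that also uncoats clathrin vesicles, varied 4.44-fold. It stood at 42.2, 165 and 47.2 CPM in Hoxb8 libraries 6, 14 and 22, against 40.4, 154, 47.7 and 179.7 CPM in non-Hoxb8 libraries 5, 13, 21 and 25. Libraries 25, 14 and 13 were high and the other 4 low, in both groups, and the log2 fold change was -0.32 ± 0.81 (SE). Its level is uncertain, because 74.8% of its 50-base words occur in 13 other annotated genes, 12 of them pseudogenes.

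Inducible HSP70 varied relative to constitutive HSP70. Counts of Hspa1a and Hspa1b together over those of Hspa8 were 2.49, 4.29 and 0.689 in Hoxb8 libraries 6, 14 and 22, against 2.73, 2.96, 0.342 and 4.35 in non-Hoxb8 libraries 5, 13, 21 and 25. The ratio was lowest in libraries 21 and 22, while libraries 5 and 6, with Hspa8 levels as low, stood near library 13.

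**Figure D2:**
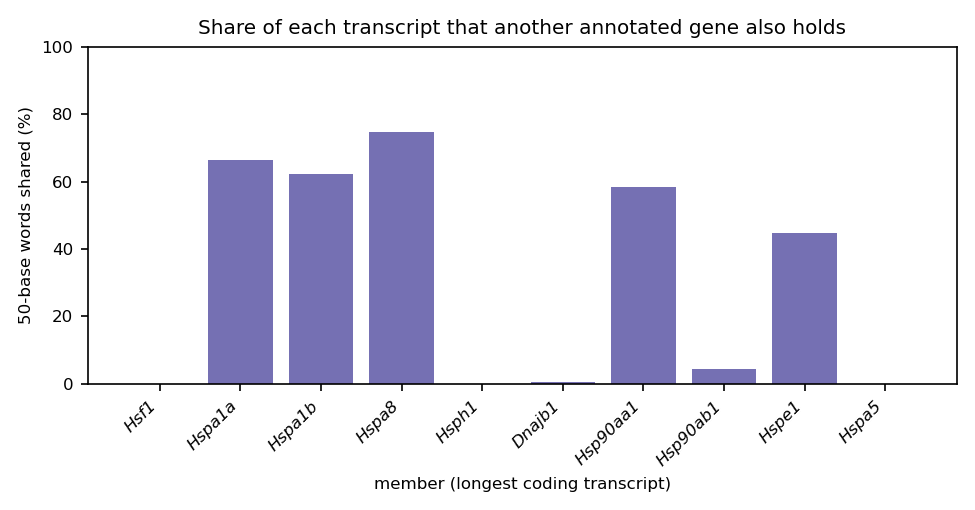
Percent of the 50-base words (the read length in the labels) in each member's longest coding transcript that also occur in an annotated transcript of another gene. Hspa8 (74.8%), Hspa1a (66.3%), Hspa1b (62.3%), Hsp90aa1 (58.5%) and Hspe1 (44.8%) share much of their length, and Hspa5, Hsph1 and Hsf1 share none.

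Hsph1 encodes HSP110, a nucleotide exchange factor of HSP70 (chr5:149614287-149636376). Its promoter is shown for the longer 3-unit heat shock element, and capitals mark matches to GAANNTTCNNGAA on either strand and to the 2-unit forms GAANNTTC and TTCNNGAA, which partly overlap it.
Hsph1, chr5:149636287-149636586, minus strand: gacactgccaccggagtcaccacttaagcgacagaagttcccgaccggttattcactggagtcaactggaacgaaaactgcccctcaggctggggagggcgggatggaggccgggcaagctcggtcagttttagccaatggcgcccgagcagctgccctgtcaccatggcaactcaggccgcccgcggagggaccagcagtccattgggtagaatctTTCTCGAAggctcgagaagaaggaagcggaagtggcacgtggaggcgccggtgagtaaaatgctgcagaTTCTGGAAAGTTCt
The 3-unit match lies at positions 37 to 49, after the start, and a separate TTCNNGAA match at -33 to -26. In the window of a second RefSeq start, the same matches lie at 16 to 28 and -54 to -47. The 3-unit letters occur in 0.603% of all promoter windows and TTCNNGAA in 8.52%.

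Hsph1 stood at 44.0, 263 and 29.3 CPM in Hoxb8 libraries 6, 14 and 22, against 38.3, 204, 34.4 and 92.1 CPM in non-Hoxb8 libraries 5, 13, 21 and 25. Libraries 14 and 13 were highest and library 25 lay between them and the other 4, whereas Hspa1b was highest in library 25. The groups overlapped, with a log2 fold change of 0.28 ± 1.07 (SE).

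Dnajb1 (chr8:83608193-83612653) encodes an HSP40, a J-domain protein that delivers unfolded chains to HSP70 and stimulates its ATPase. It stood at 83.8, 203 and 77.8 CPM in Hoxb8 libraries 6, 14 and 22, against 79.9, 138, 66.9 and 158 CPM in non-Hoxb8 libraries 5, 13, 21 and 25. Libraries 14, 25 and 13 were again highest, within a 3.03-fold range, and the log2 fold change was 0.13 ± 0.40 (SE). Neither of its 2 RefSeq promoter windows held the heat shock letters searched, which says only that they are not in those windows.

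Hsp90aa1 and Hsp90ab1 (chr12:110690605-110702728 and chr17:45567775-45573271) encode the inducible and the constitutive cytosolic HSP90, which matures kinases and steroid receptors and restrains HSF1. Hsp90aa1 stood at 38.6, 159.8 and 33.1 CPM in Hoxb8 libraries 6, 14 and 22, against 46.3, 177, 22.7 and 149 CPM in non-Hoxb8 libraries 5, 13, 21 and 25. Hsp90ab1 stood at 413, 869 and 451 CPM in the Hoxb8 libraries, against 375.5, 879.9, 358 and 821 CPM in the non-Hoxb8 libraries in the same order. Both were highest in libraries 13, 14 and 25, over a 7.79-fold range for the inducible and a 2.46-fold range for the constitutive gene. Counts of Hsp90aa1 over Hsp90ab1 were 0.0934, 0.184 and 0.0734 in Hoxb8 libraries 6, 14 and 22, against 0.123, 0.201, 0.0636 and 0.182 in non-Hoxb8 libraries 5, 13, 21 and 25. That ratio too was highest in libraries 13, 14 and 25. The log2 fold changes were -0.36 ± 0.97 (SE) for Hsp90aa1 and -0.08 ± 0.46 for Hsp90ab1. In Hsp90aa1, 58.5% of the 50-base words occur in 4 pseudogenes, so its level is uncertain, against 4.49% in Hsp90ab1.

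Hspe1 encodes HSP10, the lid of the mitochondrial chaperonin, whose barrel HSP60 is encoded by the neighbouring Hspd1 on the opposite strand (chr1:55088132-55091307 for Hspe1). Its promoter is shown because overlapping 3-unit elements, with 2-unit forms inside them, lie at positions -89 to -77 and -84 to -72, in capitals.
Hspe1, chr1:55087898-55088197, plus strand: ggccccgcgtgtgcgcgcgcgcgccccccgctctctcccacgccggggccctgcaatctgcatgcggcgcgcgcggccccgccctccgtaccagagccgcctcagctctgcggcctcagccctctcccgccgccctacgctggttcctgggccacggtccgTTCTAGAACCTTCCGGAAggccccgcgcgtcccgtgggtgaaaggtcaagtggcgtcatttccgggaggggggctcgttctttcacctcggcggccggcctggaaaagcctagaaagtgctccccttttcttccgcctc
The share of all promoters with the 3-unit letters is the 0.603% given for Hsph1.

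Hspe1 had the lowest mean level of the members in both groups, with between 37 and 160 counts per library (Hspa1b had fewer, 35, in library 21). It stood at 8.54, 20.5 and 5.38 CPM in Hoxb8 libraries 6, 14 and 22, against 8.50, 20.3, 5.92 and 8.23 CPM in non-Hoxb8 libraries 5, 13, 21 and 25. Libraries 14 and 13 were highest, and library 25 was not above libraries 5 and 6. The log2 fold change was 0.09 ± 0.57 (SE). Hspe1 and Hspd1 overlap, and reads without strand cannot be told apart there.

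Hspa5 (chr2:34771970-34777547) encodes BiP, the HSP70 of the endoplasmic reticulum. Its promoter is shown for the ER stress element, the letters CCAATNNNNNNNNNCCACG, through which the unfolded protein response acts, in capitals at positions -65 to -47.
Hspa5, chr2:34771840-34772139, plus strand: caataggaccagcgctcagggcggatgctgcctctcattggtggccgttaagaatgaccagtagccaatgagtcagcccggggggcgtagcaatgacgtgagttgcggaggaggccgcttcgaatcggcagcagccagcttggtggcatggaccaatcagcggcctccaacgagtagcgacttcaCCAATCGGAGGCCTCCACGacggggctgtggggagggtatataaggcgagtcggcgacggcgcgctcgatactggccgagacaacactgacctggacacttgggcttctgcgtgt
These letters occur in 0.119% of all promoter windows (both strands searched), and this window held none of the heat shock letters searched.

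Hspa5 stood at 475, 944.5 and 618 CPM in Hoxb8 libraries 6, 14 and 22, against 582, 1138, 517 and 831 CPM in non-Hoxb8 libraries 5, 13, 21 and 25. It was highest in libraries 13, 14 and 25, like the cytosolic genes, within a 2.39-fold range. The groups overlapped, with a log2 fold change of -0.17 ± 0.31 (SE), and its SD of log2 CPM, 0.47, was close to the median of all tested genes. Counts of Hspa5 over those of Hsp90b1, the HSP90 of the same compartment, were 0.328, 0.537 and 0.373 in Hoxb8 libraries 6, 14 and 22, against 0.436, 0.505, 0.412 and 0.537 in non-Hoxb8 libraries 5, 13, 21 and 25. Hspa5 was thus higher relative to Hsp90b1 in libraries 13, 14 and 25 than in the other 4.

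Levels of different genes are compared per kilobase of annotated exon, as mean CPM per kilobase ± SD over the 7 libraries. Hsp90ab1 (198.5 ± 82.3) and Hspa5 (172.5 ± 58.5) were highest. Hspa1a (70.0 ± 71.0), Hspa1b (38.4 ± 42.8) and Dnajb1 (36.0 ± 16.1) followed, then Hsp90aa1 (22.8 ± 17.5), Hspa8 (22.5 ± 15.3), Hsph1 (13.9, with a range of 4.04 to 36.2), Hsf1 (9.92 ± 1.32) and Hspe1 (7.50 ± 4.42). The ranges of all neighbours in this order overlapped. The order depends on the length used, most of all for 4 genes: annotated exons add up to 7099 bases for Hsf1, 7266 bases for Hsph1, 4301 bases for Hspa8 and 1474 for Hspe1, while the longest coding transcripts have 2104, 3802, 2394 and 774. The places of these 4 are therefore uncertain, as are those of the genes with many shared words.

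The study compares Hoxb8 with non-Hoxb8 microglia. Among the members, 3 of 10 had a log2 fold change above 0, and the median was -0.14, beside -0.0004 over all tested genes. The quasi-likelihood test of edgeR, adjusted over all 11874 genes, called 0 of 10 members and 0.0337% of tested genes, and 0 members had an unadjusted p below 0.05, as 3.52% of tested genes had. DESeq2 called 0 members, while 0.202% of tested genes were called (0.168% as higher in Hoxb8), and 0 members had an unadjusted p below 0.05, as 4.3% of tested genes had. Limma-voom called 0 members and 0% of tested genes, with 0 members and 3.18% of tested genes at an unadjusted p below 0.05. The rule used this contrast, so nothing is read from these counts. The groups overlapped for all 10 members, while 4.55% of tested genes had groups without overlap.

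The member fold changes turned with the libraries left in. Without Hoxb8 library 14 the median was -0.93, with Hspa1a at -2.28, Hspa1b at -2.35 and Hsph1 at -1.33. Without non-Hoxb8 library 25 it was 0.08, with Hspa1a at 0.51 and Hspa1b at 0.57. Without libraries 21, 22 and 25, which hold transcripts of both sexes, it was 0.06, and without 13 and 14 it was -0.46.

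A fit with adjacent library numbers as a replicate block (6 with 5, 14 with 13, 22 with 21, and 25 alone) gave a median of 0.09 and 7 of 10 members above 0. The labels do not state these pairs, and library 25, having no partner, adds nothing to the difference there. Hspa1b had a log2 fold change of 0.69 ± 0.22 (SE) and Hspa1a of 0.39 ± 0.20, and the other 8 lay between -0.10 and 0.28. This fit called 0 of 10 members, where 0.362% of tested genes were called, and 1 member, Hspa1b, had an unadjusted p below 0.05, as 5.02% of tested genes had. Nothing is read from these counts either.

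**Figure D3:**
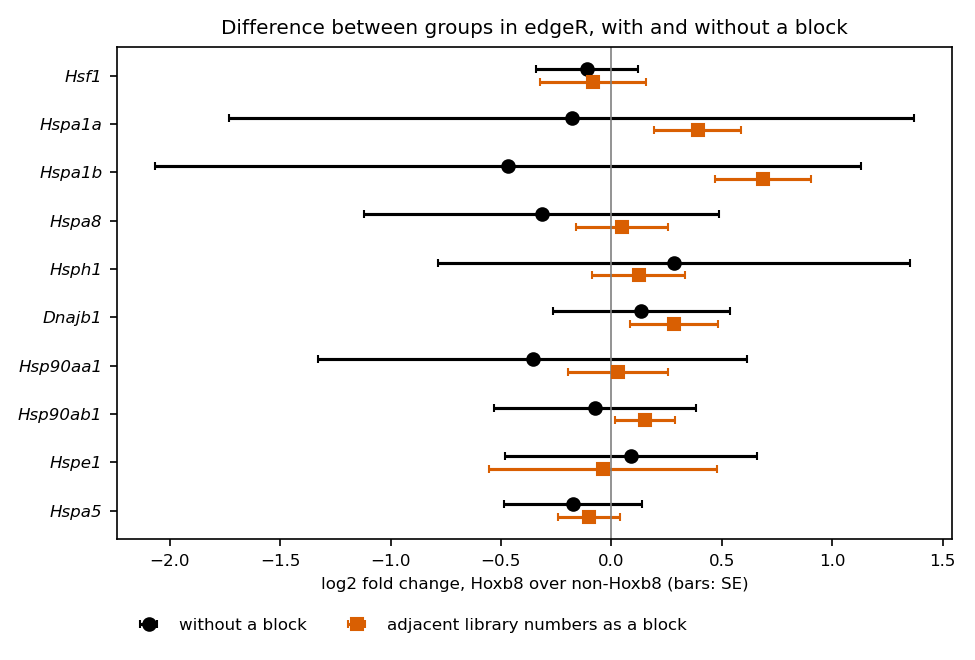
Log2 fold change of Hoxb8 over non-Hoxb8 libraries for the 10 members with standard errors, in the edgeR fit without a block and with adjacent library numbers as a block. The errors of Hspa1a and Hspa1b are 1.55 and 1.60 without the block, and 0.20 and 0.22 with it.

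Member levels were compared between libraries with adjacent numbers, though libraries with other numbers could be as close. Hspa8, for one, stood between 40.4 and 47.7 CPM in libraries 5, 6, 21 and 22. The log2 ratio of library 6 over 5 lay between -0.29 and 0.48 over the 10 members, that of 14 over 13 between -0.52 and 0.66, and that of 22 over 21 between -0.23 and 1.16. The Hoxb8 library was the higher for 7, 6 and 7 of the 10 members. For Hspa1b, singled out after its values were seen, the ratios were 0.48, 0.56 and 1.16.

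Patterns over the 7 libraries were compared by Pearson's r of log2 CPM, as a description: the libraries may share animals, and all genes of a library share its depth and handling. Among all 45 pairs of members, r lay between -0.46 and 0.98 with a median of 0.87. In the 36 pairs without Hsf1 it lay between 0.71 and 0.98 with a median of 0.91. The members were chosen partly for their spread over these libraries. The r over pairs of all tested genes was not computed, so nothing is read from these values. Hsf1 had an r between -0.46 and -0.01 with the other 9. The closest genes outside the members were Dusp1, a phosphatase gene of the immediate early response (0.99), Fos, a transcription factor gene of that response (0.99), and Aldh16a1 (0.98) for Hspa1b. For its near copy Hspa1a they were Trp53inp2, Aldh16a1 and Gnas, with Dusp1 next (0.99 for each). For Hspa8 they were Mbp, the myelin basic protein gene (0.99), Myh11, the smooth muscle myosin gene (0.99), and Tuba1c, a tubulin gene (0.99). Myh11 was scarce, with 0 CPM in Hoxb8 library 6 and in non-Hoxb8 libraries 5 and 21 and at most 4.46 CPM, in library 25. They were Ppp1cb (0.98), Add3 (0.97) and Hnrnpab (0.96) for Hspa5, and Ckap5 (0.99), Socs6 (0.98) and Lsm3 (0.97) for Hsf1.

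Dusp1 stood at 207, 1196 and 78.0 CPM in Hoxb8 libraries 6, 14 and 22, against 169, 667, 55.4 and 1207 CPM in non-Hoxb8 libraries 5, 13, 21 and 25. Fos stood at 66.7, 352 and 32.6 CPM in the Hoxb8 libraries, against 78.4, 316, 19.2 and 641 CPM in the non-Hoxb8 libraries in the same order. Dusp1 had the library order of Hspa1b, and Fos the same order but for libraries 5 and 6. The 16 listed immediate early genes, which are switched on within minutes of a stimulus, summed to 2124, 9191 and 1178 CPM in Hoxb8 libraries 6, 14 and 22, against 2166, 7075, 1014 and 9689 CPM in non-Hoxb8 libraries 5, 13, 21 and 25. The median r with these 16 genes was 0.94 for Hspa1b, 0.93 for Hspa1a and 0.91 for Hsp90aa1, 0.73 for Hspa5, 0.71 for Hspe1 and -0.16 for Hsf1. The part of the immediate early response in the chaperone levels was not tested.

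Il1b, an inflammatory cytokine gene, stood at 26.5, 941.5 and 8.75 CPM in Hoxb8 libraries 6, 14 and 22, against 11.1, 408, 5.76 and 8.57 CPM in non-Hoxb8 libraries 5, 13, 21 and 25. It was high in libraries 14 and 13 but not in 25. Ccl3, a chemokine gene, stood at 71.0, 1115 and 56.8 CPM in Hoxb8 libraries 6, 14 and 22, against 66.4, 841, 56.2 and 484 CPM in non-Hoxb8 libraries 5, 13, 21 and 25, and Nfkbiz, a regulator of NF-kappaB, at 76.2, 978 and 41.8 CPM in the Hoxb8 libraries, against 72.9, 739, 31.4 and 155.5 CPM in the non-Hoxb8 libraries in the same order. Both were higher in library 25 than in libraries 5, 6, 21 and 22, and lower there than in 13 and 14. The 9 listed inflammatory genes summed to 344, 5404 and 169 CPM in Hoxb8 libraries 6, 14 and 22, against 322, 3304, 149 and 1073 CPM in non-Hoxb8 libraries 5, 13, 21 and 25, again with library 25 between 13 and 14 and the rest. Among the members, Hsph1, Hspa5, Hsp90aa1, Hsp90ab1 and Hspe1 were lower in library 25 than in both 13 and 14, and the first 4 of these stayed above the other 4 libraries there.

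**Figure D4:**
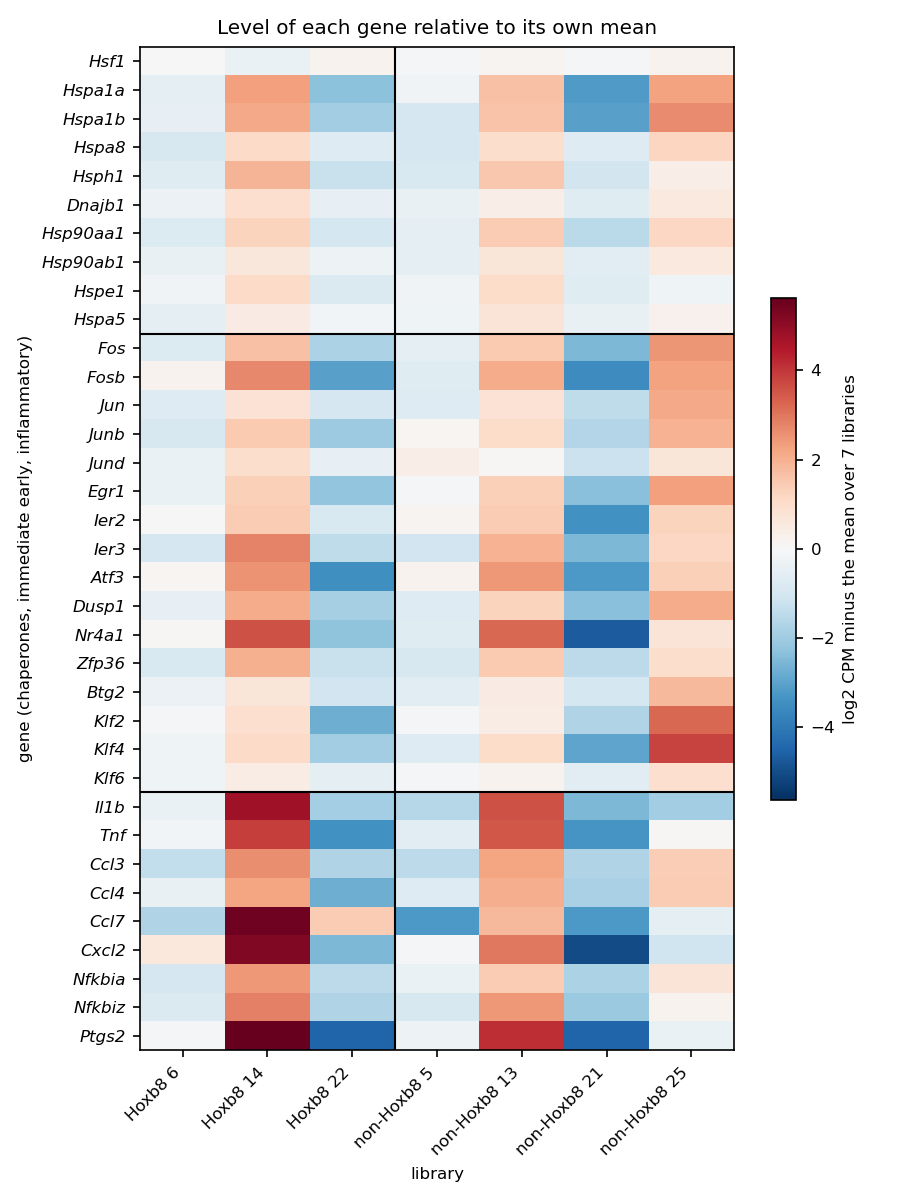
Log2 CPM of each gene minus its mean over the 7 libraries (colour scale) for the chaperone members, 16 immediate early genes and 9 inflammatory genes, with the 3 Hoxb8 libraries left of the 4 non-Hoxb8 libraries. Library 25 is high in most chaperone genes, low in Il1b (8.57 CPM) and raised in Ccl3 (484 CPM), and Hsf1 varies least among the chaperone members.

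Marker transcripts of other brain cells also differed between these libraries. The astrocyte, oligodendrocyte and neuron sums were each highest in libraries 13, 14 and 25, as were most members. The endothelial sum was highest in library 5 (49.8 CPM) and the mural and fibroblast sum in library 6 (16.4 CPM). The genes of a list did not all move together. Astrocyte markers (6 of 6 in the table) summed to between 279.6 and 641 CPM in Hoxb8 libraries and between 391 and 1120 CPM in non-Hoxb8 libraries. The sum was highest in library 25, where Slc1a2 alone was at 774 CPM, and the defining marker Gfap was at no more than 3.43 CPM. Slc1a2, Aqp4, Aldoc and Gfap were highest in library 25, Slc1a3 in library 5 and Gja1 in library 14. Oligodendrocyte markers (4 of 5 in the table) summed to between 146.5 and 319 CPM in Hoxb8 libraries and between 151 and 333 CPM in non-Hoxb8 libraries. Mbp stood at 93.4, 221 and 113 CPM in Hoxb8 libraries 6, 14 and 22, against 90.1, 225, 99.4 and 256 CPM in non-Hoxb8 libraries 5, 13, 21 and 25. Libraries 25, 13 and 14 were highest for Mbp, but not for Mag, highest in library 5, nor for Cnp, where library 5 (71.4 CPM) was second to library 14 (74.3 CPM). Neuron markers (5 of 6 in the table) summed to between 26.1 and 48.2 CPM in Hoxb8 libraries and between 9.93 and 76.4 CPM in non-Hoxb8 libraries. The part of RNA from these cells in the chaperone levels was not tested, and in bulk samples fewer cells of a type and less RNA per cell cannot be told apart.

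Other genes of protein folding were read from 10 lists holding 95 distinct genes, of which 92 were in the table and 88 were tested. Of these, 0 were higher and 0 lower in Hoxb8 libraries in edgeR, adjusted over all genes tested, and 1, Hspa4l, had an unadjusted p below 0.05 (1.14%, beside 3.52% of all tested genes). DESeq2, limma-voom and the fit with the block called 0 of them. Their median log2 fold change was -0.03, beside -0.0004 over all genes. In the paragraphs below, means are given with SD over 3 Hoxb8 and 4 non-Hoxb8 libraries.

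The HSF family list (3 tested, median log2 fold change -0.44) held Hsf2, a second heat shock factor, at 29.7 ± 13.7 CPM in Hoxb8 and 40.3 ± 18.9 CPM in non-Hoxb8 libraries. Hsbp1, whose protein binds HSF1 trimers, averaged 106 ± 8.33 CPM in Hoxb8 and 122 ± 27.5 CPM in non-Hoxb8 libraries, and Hspbap1 8.41 ± 2.42 CPM in Hoxb8 and 14.1 ± 8.16 CPM in non-Hoxb8 libraries. Other HSF1 response genes (15 tested, median -0.06) included Hspd1, the HSP60 barrel, at 48.1 ± 26.8 CPM in Hoxb8 and 40.5 ± 17.3 CPM in non-Hoxb8 libraries. Dnaja1, an HSP40, averaged 77.5 ± 23.2 CPM in Hoxb8 and 87.3 ± 41.8 CPM in non-Hoxb8 libraries. Bag3, an exchange factor of HSP70 linked to autophagy, averaged 42.8 ± 28.1 CPM in Hoxb8 and 32.2 ± 9.34 CPM in non-Hoxb8 libraries. Bag3 varied 3.75-fold over the libraries, with its highest value in library 14, as Hsph1 had.

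Other HSP70 and HSP110 genes (8 tested, median 0.12) included Hspa9, the mitochondrial HSP70, at 78.4 ± 21.4 CPM in Hoxb8 and 72.0 ± 27.7 CPM in non-Hoxb8 libraries. Hspa4, a relative of HSP110, averaged 174 ± 20.7 CPM in Hoxb8 and 181 ± 37.5 CPM in non-Hoxb8 libraries and varied 1.58-fold over the libraries. Hspa14 averaged 38.1 ± 6.00 CPM in Hoxb8 and 32.5 ± 9.17 CPM in non-Hoxb8 libraries. Hspa4l, named after its values were seen, averaged 4.84 ± 2.27 CPM in Hoxb8 and 11.5 ± 4.78 CPM in non-Hoxb8 libraries. Its log2 fold change of -1.25 ± 0.58 (SE) did not pass the adjusted test. Other J-domain genes (15 tested, median -0.10) included Dnaja2 at 66.1 ± 4.85 CPM in Hoxb8 and 70.7 ± 25.1 CPM in non-Hoxb8 libraries and the mitochondrial Dnaja3 at 26.8 ± 11.4 CPM in Hoxb8 and 30.0 ± 6.68 CPM in non-Hoxb8 libraries.

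HSP70 exchange and adaptor genes (8 tested, median 0.14) included Bag1 at 53.4 ± 16.6 CPM in Hoxb8 and 50.7 ± 15.4 CPM in non-Hoxb8 libraries and Bag4 at 23.2 ± 9.01 CPM in Hoxb8 and 17.5 ± 4.12 CPM in non-Hoxb8 libraries. HSP90 co-chaperones (11 tested, median 0.16) included Cdc37, which brings kinases to HSP90, at 34.6 ± 0.705 CPM in Hoxb8 and 32.5 ± 6.71 CPM in non-Hoxb8 libraries. Stip1, which joins HSP70 to HSP90, averaged 56.9 ± 28.6 CPM in Hoxb8 and 57.0 ± 18.2 CPM in non-Hoxb8 libraries, and Ptges3, the p23 co-chaperone, 27.2 ± 10.9 CPM in Hoxb8 and 21.4 ± 3.24 CPM in non-Hoxb8 libraries. Small heat shock proteins (4 tested, median -0.42) were scarce. Hspb1 averaged 1.61 ± 1.64 CPM in Hoxb8 and 2.32 ± 1.47 CPM in non-Hoxb8 libraries, Cryab, a crystallin also made by glia, 1.35 ± 1.18 CPM in Hoxb8 and 2.80 ± 1.87 CPM in non-Hoxb8 libraries, and Hspb6 12.6 ± 8.30 CPM in Hoxb8 and 6.28 ± 5.38 CPM in non-Hoxb8 libraries.

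Chaperonins (9 tested, median -0.05), of which the cytosolic complex folds actin and tubulin, included Tcp1 at 98.5 ± 37.9 CPM in Hoxb8 and 82.6 ± 19.8 CPM in non-Hoxb8 libraries. Cct2 averaged 117 ± 7.54 CPM in Hoxb8 and 124 ± 12.1 CPM in non-Hoxb8 libraries and varied 1.25-fold over the 7 libraries. Mitochondrial proteases and import chaperones (7 tested, median 0.12) included the exchange factor Grpel1 at 18.8 ± 5.07 CPM in Hoxb8 and 18.9 ± 3.50 CPM in non-Hoxb8 libraries. Genes of the endoplasmic reticulum (22 tested, median -0.07) included Hsp90b1 at 1621 ± 157 CPM in Hoxb8 and 1598 ± 455 CPM in non-Hoxb8 libraries. The lectin chaperones Calr and Canx averaged 429 ± 40.2 CPM in Hoxb8 and 464.5 ± 119.6 CPM in non-Hoxb8 libraries, and 677 ± 113 CPM in Hoxb8 and 621 ± 138 CPM in non-Hoxb8 libraries.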

How the data were processed

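The deposited table holds raw counts per gene symbol in 7 libraries. Per the labels' protocols, the authors mapped single-end reads of 50 bases without strand with STAR 2.4.1c to GRCm38 (GENCODE M5). FeatureCounts, Subread and DESeq2 also appear in the submitters' processing notes. No source used here says how reads with several matches were counted. Of 14616 rows, 22 named no gene and were left out (median 0.133% of counts). Library totals of 5915261 to 7741934 counts limit counting error only, since reads carry no molecular identifiers.

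Groups follow the sort recorded for each sample. The main test of the counts was that of edgeR 4.0.16 under R 4.3.3 (TMM, filterByExpr, robust glmQLFit and glmQLFTest, Benjamini-Hochberg at 0.05) on 11874 genes, and all 10 members passed the filter. SE is the log2 fold change over the square root of F. Log2 CPM used a prior count of 2. Alternatives were DESeq2 1.42.0, limma-voom (limma 3.58.1), other scalings, no filter, a block and libraries left out. On counts simulated for this comparison (11577 genes tested), the main test recovered 72 of 98 genes changed 4-fold and 90 of 97 changed 16-fold, with 12 false calls. The fit with the block recovered 64 of 98 and 85 of 97, with 12 false calls. Simulated counts were drawn independently, without a pattern shared by libraries, and the changed genes were picked at random. These rates therefore do not give the power for widely spread genes such as Hspa1a and Hspa1b. The members and lists were chosen with earlier results of these data known. Named genes were the members, the first 3 tested genes of each folding list and any past the test, the 3 genes of highest r for Hspa1b, Hspa8, Hspa5 and Hsf1, and in marker and stress lists at most 3 of the most abundant genes. Hspa4l, Trp53inp2, Gnas, Mag, Cnp, Gfap, Aldoc, Gja1, Ly6c2 and the other border-associated macrophage and monocyte markers named were added after their values were seen.

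Adjacent library numbers were taken as possible pairs: deviations from group means correlated at 0.18 (6 with 5), 0.28 (14 with 13) and 0.19 (22 with 21). Promoters are from RefSeq (GRCm38.p6, windows for 6 of 10 members); positions, exon lengths and transcripts are from GENCODE M21.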

Additional observations from a re-analysis of the deposited data

Results flagged for a closer look

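Among the 4 non-Hoxb8 libraries, 22 measures (the members and the mean log2 CPM of the folding and stress lists) were searched for a library far from the others, which chance alone gives in about 1 of 20 such groups. The small heat shock protein list was low in library 21, with a gap to the nearest library of 0.83 of the range, just above Dixon's critical value for 4 samples. Its genes did not move as one: Hspb1 (3.02, 2.67, 0.160 and 3.43) and Hspb6 (5.62, 3.18, 2.24 and 14.1) were lowest in library 21, while Cryab (2.88, 5.21, 2.40 and 0.686) was lowest in library 25 and Hspb3 (17.4, 11.4, 14.6 and 12.0) in library 13, the values being CPM in libraries 5, 13, 21 and 25. Hspb1 was very scarce in library 21, at 0.160 CPM, so the gap of the list rests in part on very few reads. Of the members, Hspe1 had the largest gap, 0.711 of the range in library 13, under the critical value.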

How the results depend on the processing

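The count of members called was 0 under all 15 alternatives, and so was that of the other folding genes. Of all genes, 4 were higher and 0 lower in Hoxb8 libraries. The count of higher genes was 20 with DESeq2 (and 4 lower), 0 with limma-voom, 2 without libraries 13 and 14, and 0 without libraries 21, 22 and 25. Leaving out single libraries gave 0 to 6 higher genes (0 without non-Hoxb8 library 5, 2 without Hoxb8 library 14) and 0 lower. With the replicate block of adjacent library numbers it was 43, and no member was called. The median of the members, -0.14, lay between -0.93 and 0.09 and changed sign in 6 of 15 alternatives. The cause of these changes was not tested. The fold change of Hsph1, 0.28, was -1.33 without Hoxb8 library 14. The spread within groups limits what can be detected for Hspa1a, Hspa1b and Hsph1, and counts of 37 to 160 limit Hspe1.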
